A study of Mus musculus with 10 samples.

Results

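The genes described here encode receptors and bridging ligands by which dying cells are cleared. They are the TAM receptors Mertk, Axl and Tyro3, the ligands Gas6, Pros1 and Mfge8, and the receptors Timd4, Stab1 and Stab2. They were chosen by name, with earlier results of these data known, as 9 of the 54446 gene identifiers counted in each tumour library. Of these 9 genes, 8 were among the 14956 genes with enough counts to be tested, and Stab2 was not.

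The libraries hold polyadenylated RNA from tumours of TH-MYCN mice, a strain in which a human MYCN transgene under a tyrosine hydroxylase promoter gives neuroblastoma of the sympathetic nervous system. There were 3 groups: untreated TH-MYCN tumours (n = 3 libraries, numbered 1 to 3), tumours after 24 h of the combination of MLN8237 and AZD6738 (n = 3, numbered 2 to 4) and tumours after 5 days of the same combination (n = 4, numbered 1 to 4). MLN8237, or alisertib, blocks the kinase Aurora-A, which mitosis needs. AZD6738, or ceralasertib, blocks ATR, a kinase of the DNA damage response. The sample titles name a combination, whereas the design text puts "or" between the 2 drugs. Neither age, sex nor the number of mice is given, and no vehicle is named for the untreated group. Separate mice are not stated for the libraries of a group, so a p-value here speaks of the spread among libraries, which may be technical.

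A dying cell moves phosphatidylserine to the outer face of its membrane, where phagocytes can read it. Timd4 (TIM-4), Stab1 and Stab2 bind this lipid directly. Gas6 and Pros1 (protein S) bind it through a vitamin K dependent domain and bridge it to the TAM receptor tyrosine kinases, and Mfge8 (lactadherin) bridges it to integrins. Macrophages use Mertk above all for this task, while Axl is also found on fibroblasts, endothelium and many tumour cells, and Tyro3 is the TAM receptor typical of neurons. RNA levels in whole tumours do not show whether more cells of one type or more RNA per cell lie behind a difference, since fewer cells of a type and less RNA per cell cannot be told apart.

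One library stood apart and is shown separately throughout. In 5-day library 1 the 10 adrenergic tumour markers summed to 420 CPM (CPM, counts relative to the scaled library total), against 1218 to 1605 CPM in the other 9 libraries, and Mycn was at 21.4 CPM against 79.5 to 111 CPM. Its 16 macrophage markers summed to 13074 CPM, against 519 to 1575 CPM elsewhere, and its fibroblast and adipocyte markers to 18091 and 15764 CPM. Libraries held 5576926 to 5696436 counts, so that 3 counts equal 0.513 to 0.649 CPM, and a gene with 0 counts may lie anywhere below. Limits and intervals of this kind cover counting error only. Some genes, among them B2m, which nearly every cell uses, and the macrophage marker Itgam, were listed at 0 in all 10 libraries, so a 0 is not read as absence of the transcript.

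The 250 bases before the RefSeq start of Mertk and of Timd4 are printed, because these receptors stood above every untreated library at 5 days and because their windows differ in makeup (RefSeq, GRCm38.p6, 5' to 3' along the gene). For Mertk the window is chr2:128698665-128698914 on the plus strand, and capitals mark the GC box GGGCGG, read here on the other strand as CCGCCC. For Timd4 it is chr11:46810549-46810798 on the plus strand, and capitals mark the ETS-IRF composite GGAANNGAAA.
Mertk: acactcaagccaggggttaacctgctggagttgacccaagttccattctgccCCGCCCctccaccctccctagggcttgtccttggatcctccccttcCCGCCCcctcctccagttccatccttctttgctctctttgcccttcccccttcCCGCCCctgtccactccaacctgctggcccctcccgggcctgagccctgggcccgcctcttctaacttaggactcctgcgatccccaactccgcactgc
Timd4: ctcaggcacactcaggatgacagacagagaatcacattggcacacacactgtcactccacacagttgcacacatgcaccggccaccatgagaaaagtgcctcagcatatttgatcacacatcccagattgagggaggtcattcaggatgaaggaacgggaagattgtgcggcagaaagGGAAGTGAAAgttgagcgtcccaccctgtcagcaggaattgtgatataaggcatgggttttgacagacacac
The Mertk window held 3 GC boxes, the nearest at -99 to -94 from the start, and 63.6% G and C. The Timd4 window held no GC box, 1 ETS-IRF composite at -72 to -63, and 50% G and C, against a median of 52.4% over 32817 promoter windows.

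All 9 genes had such a window, searched on both strands for 5 sequences that were chosen after the windows were seen. A GC box lay in the windows of 6 genes (Mertk, Axl, Tyro3, Gas6, Pros1 and Mfge8) and in 32.7% of all windows. In Pros1 a pair of GC boxes overlapped, at -12 to -7 and -8 to -3. The ETS-IRF composite lay in those of 2 genes, Timd4 and Stab2, and in 2.3% of all windows. The E-box CACGTG (6.02% of all windows), TATAAA (12.4%) and the LXR repeat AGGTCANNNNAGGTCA (0.0152%) were in none of the 9. No motif of one kind overlapped one of another kind in these windows. A match is a description of the letters and not of a bound factor.

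In untreated tumours Axl was the most abundant of the genes per length and Stab2 the least. On the scale of CPM per kilobase of exon (RPKM), Axl was at 8.23 ± 3.14, Gas6 at 4.94 ± 4.41, Stab1 at 4.08 ± 1.38 and Mfge8 at 4.02 ± 0.272 (SD, n = 3 libraries each). They were followed by Pros1 at 3.45 ± 1.25, Mertk at 2.50 ± 0.624, Timd4 at 0.802 ± 0.564 and Tyro3 at 0.496 ± 0.0421 RPKM (SD, n = 3 each). Stab2 was at 0.0199 RPKM, from 1 count in each untreated library. From Axl to Mertk, neighbours in this order lay closer than the larger of their SDs, as did Timd4 and Tyro3. Mertk and Timd4 lay further apart than that.

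In the treated groups Mertk stood higher in this order. At 24 h Mertk was at 5.31 ± 0.820 RPKM (SD, n = 3), behind Axl (9.48), Mfge8 (6.25) and Stab1 (5.71). In 5-day libraries 2 to 4 it was at 6.48 ± 3.23 RPKM (SD, n = 3), second to Axl at 11.6 ± 5.37. Mertk, Mfge8, Stab1 and Gas6 still lay within their SDs of each other at 24 h, and at 5 days so did neighbours in the order from Axl to Pros1. Timd4, at 2.23 ± 0.408 RPKM in these 3 libraries, lay above Tyro3 at 0.382 ± 0.00874 by more than either SD.

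Comparing 24 h of treatment with no treatment addresses the early response of the tumours. Mertk, the main TAM receptor of macrophages, was the one tested gene of the 9 whose groups did not overlap. It was at 14.0, 9.58 and 9.03 CPM in untreated libraries 1 to 3 and at 20.1, 27.0 and 21.9 CPM in 24 h libraries 2 to 4. Every 24 h library was thus above every untreated one, by 2.12-fold between the means (23.0 ± 3.55 against 10.9 ± 2.71 CPM, SD, n = 3 each). Over all tested genes, 7.1% were higher without overlap in this comparison, so 1 of 8 is not far from the background.

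The Mertk difference did not pass the test. Its log2 fold change was 1.08 ± 1.03 (SE), and its Benjamini-Hochberg adjusted p over all tested genes was 1.00 in the quasi-likelihood test of edgeR. This test called 0% of genes (0 of 14956), with 263 (1.76%) at an unadjusted p under 0.05, and DESeq2 called 0 as well, giving Timd4 and Stab1 no adjusted p in any of the 3 comparisons of all 10 libraries. The spread shared by all groups, as a biological coefficient of variation, was 40.8% with 5-day library 1 and 18.9% without it. Without that library Mertk was at 1.09 ± 0.357 (SE), with an unadjusted p = 0.0132 and an adjusted p = 0.483 by edgeR. That fit called 2 genes (0.0136%), and DESeq2 on the same libraries called 105 (0.981%), none of them among the 9. DESeq2 gave Mertk an adjusted p = 0.142 there, and gave Tyro3 and Timd4 none. A fit restricted to untreated and 24 h libraries gave Mertk an adjusted p = 0.186 by edgeR, rank 35 by p of 14283 genes, and called 7 genes (0.049%).

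Axl and Tyro3 overlapped between these groups. Axl was at 39.3, 26.8 and 58.2 CPM in untreated libraries 1 to 3 and at 41.8, 59.9 and 41.3 CPM in 24 h libraries 2 to 4. Its log2 fold change of 0.20 ± 0.921 (SE) became -0.02 without untreated library 2. Tyro3 was low and even, at 2.79, 3.31 and 3.13 CPM untreated and 3.62, 3.83 and 2.95 CPM at 24 h. These are 16 to 22 counts per library, and its log2 fold change was 0.17 ± 0.305 (SE).

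The bridging ligands of the TAM receptors showed no common direction at 24 h. Gas6 was at 8.21, 4.18 and 25.4 CPM untreated and at 14.3, 11.0 and 12.2 CPM at 24 h. Untreated library 3 alone was above all 24 h libraries, and the other 2 untreated libraries were below them. The log2 fold change of Gas6 was -0.01 ± 1.28 (SE), and it was 1.01 without untreated library 3. In that library the fibroblast markers summed to 2692 CPM, against 1091 and 924 CPM in untreated libraries 1 and 2, and the adipocyte markers to 1294 CPM, against 98.1 and 197 CPM. Their part in the Gas6 value was not tested.

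Pros1, the other vitamin K dependent ligand, was at 11.7, 10.6 and 20.0 CPM untreated and at 11.0, 19.2 and 12.9 CPM at 24 h. Its log2 fold change of 0.02 ± 0.917 (SE) turned to between -0.09 and -0.23 when untreated library 1, untreated library 2 or 24 h library 3 was left out. Mfge8, which bridges to integrins, was at 18.9, 17.6 and 20.1 CPM untreated and at 19.6, 31.9 and 36.5 CPM at 24 h. Its 24 h libraries 3 and 4 were above all untreated libraries and library 2 lay among them, with a log2 fold change of 0.64 ± 0.755 (SE).

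Timd4, a receptor of tissue-resident macrophages, had few counts. It was at 3.14, 1.22 and 0.868 CPM in the untreated libraries (18, 7 and 5 counts) and at 3.10, 4.00 and 2.43 CPM at 24 h (18, 23 and 14 counts). Untreated library 1 reached the 24 h libraries and the other 2 did not. The fit gave 0.86 ± 1.06 (SE) on the log2 scale, and 1.59 without untreated library 1. Stab1, a scavenger receptor of macrophages and sinusoidal endothelium, was at 40.7, 28.4 and 56.8 CPM untreated and at 39.6, 51.9 and 84.8 CPM at 24 h, which overlap. Stab2, known from sinusoidal endothelium, had 1 count in each untreated library and 4, 1 and 1 counts in 24 h libraries 2 to 4, so no fold change is given.

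Over the 8 tested genes the median log2 fold change at 24 h was 0.34, and 7 of 8 were positive. Over all tested genes the median was -0.01, and 48.5% were positive. None of the 8 passed the test. Of the 16 macrophage markers 13 had a higher mean at 24 h, and Itgam was listed at 0. Their sum was 519 to 948 CPM untreated and 1148 to 1374 CPM at 24 h, without overlap, and most of it was Lyz2, at 294 to 516 and 711 to 770 CPM. The mean log2(CPM + 0.5) of the same markers, in which each weighs equally, overlapped, at 3.84 to 4.54 and 4.34 to 5.12, as did the receptor gene Csf1r at 20.9 to 43.7 and 42.4 to 50.1 CPM. The sum of the Schwann cell markers was higher without overlap too, at 15.7 to 25.3 CPM untreated and 35.0 to 69.8 CPM at 24 h. Of these markers, 8 of 8 had a higher mean at 24 h. Blood endothelial markers overlapped (82.2 to 180 and 80.1 to 185 CPM). The lymphatic and sinusoidal markers, most of whose sum was Prox1 (240 to 371 CPM over both groups), were at 367 to 427 CPM untreated and 315 to 337 CPM at 24 h. The part of macrophage or Schwann cell content in the values of the 9 genes was not tested.

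**Figure D1:**
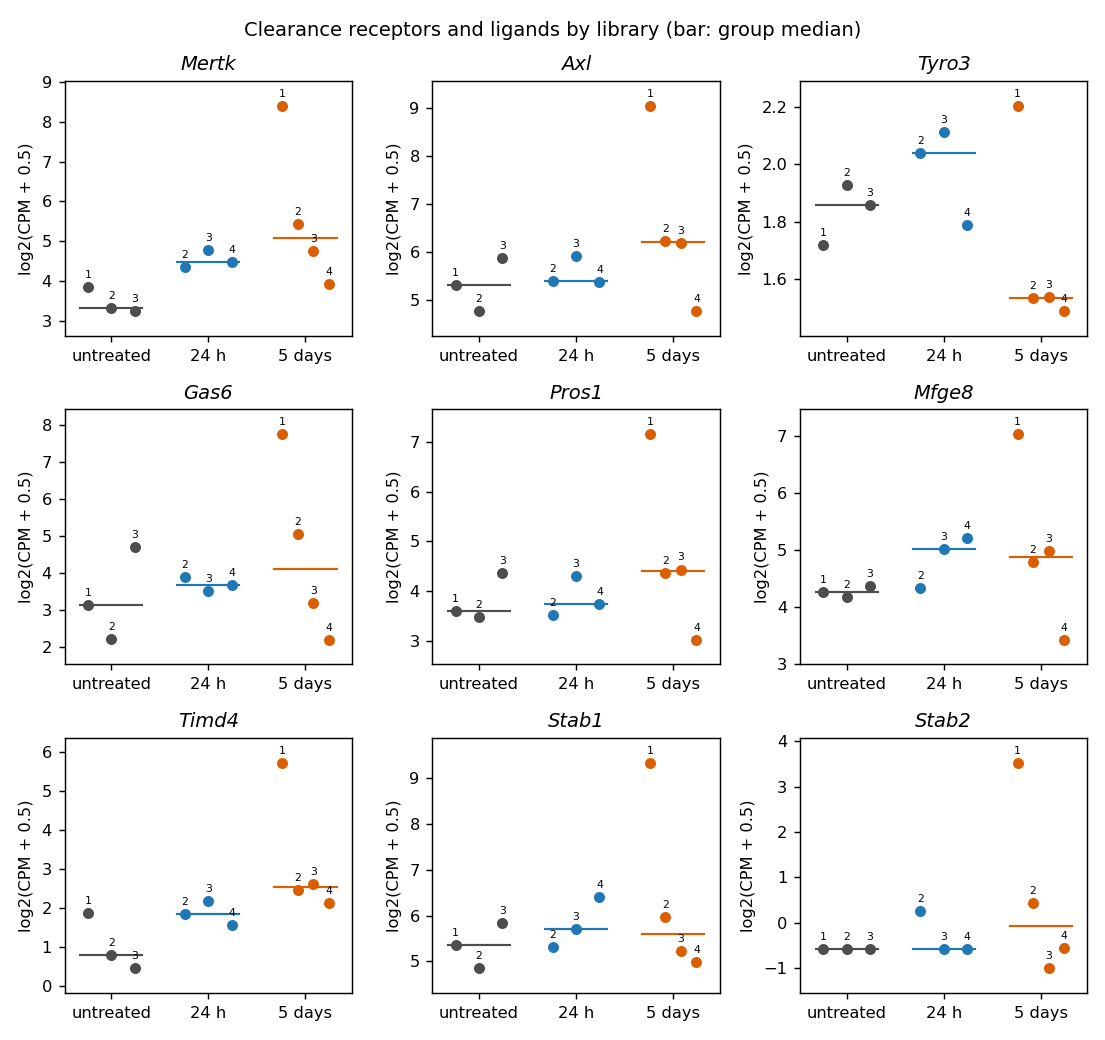
Each panel plots 1 gene as log2(CPM + 0.5) for the 10 libraries in the 3 groups, with the library number above each point and a bar at the group median. Every 24 h and 5-day library lies above the untreated ones for Mertk, and 5-day library 1 is the highest point in all 9 panels.

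The comparison of 5 days with no treatment asks what was present after longer exposure, and its size was set by 5-day library 1. Mertk was at 336 CPM in that library and at 42.8, 26.6 and 14.9 CPM in 5-day libraries 2 to 4, against 9.03 to 14.0 CPM untreated. All 4 were above all 3 untreated libraries, although library 4 exceeded the highest untreated one by little. Timd4 was at 52.6, 4.96, 5.66 and 3.90 CPM in 5-day libraries 1 to 4 (243, 29, 33 and 22 counts), again all above the highest untreated value of 3.14 CPM. These 2 genes of 8 were higher without overlap, against 3.91% of all tested genes.

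Neither difference passed the test. With all 10 libraries the log2 fold change was 3.28 ± 1.06 (SE) for Mertk and 3.25 ± 1.06 (SE) for Timd4, both with an adjusted p = 0.538 by edgeR with Benjamini-Hochberg adjustment. edgeR called 0% of genes (0 of 14956), with 1257 (8.4%) at an unadjusted p under 0.05. DESeq2 called 21 genes (0.15%), none of them among the 9, but gave Timd4 and Stab1 no adjusted p, so these could not be called. Without 5-day library 1, the log2 fold change was 1.38 ± 0.356 (SE) for Mertk, with an unadjusted p = 0.00344 and an adjusted p = 0.336 by edgeR. For Timd4 it was 1.46 ± 0.459 (SE), with an unadjusted p = 0.0085 and an adjusted p = 0.425. In that set of libraries DESeq2 called Mertk at an adjusted p = 0.0227, with a log2 fold change of 1.39, among 77 genes called (0.568%). Over the 20 other settings tried, the adjusted p of Mertk in this comparison ran from 0.0227 to 0.794, and only this setting was under 0.05.

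Axl in 5-day libraries 1 to 4 was at 525, 75.1, 72.4 and 26.9 CPM. Libraries 2 and 3 were above all untreated libraries and library 4 was level with the lowest of them. The log2 fold change of Axl was 2.08 ± 0.913 (SE) with library 1 and 0.50 ± 0.435 (SE) without it. Tyro3 was at 4.11, 2.39, 2.40 and 2.30 CPM. In library 1 Tyro3 was 1.07 times the highest of the other 9 libraries, while Mertk was 7.87 times and Axl 6.99 times their highest. In libraries 2 to 4 Tyro3 was below all untreated libraries and all 24 h libraries, at 13 to 14 counts each. Without library 1 its log2 fold change was -0.37 ± 0.307 (SE) against untreated, with an adjusted p = 0.764 by edgeR, where 7.76% of genes were lower without overlap.

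Of the ligands, Gas6 was at 215, 32.7, 8.58 and 4.08 CPM in 5-day libraries 1 to 4. Libraries 3 and 4 lay within the untreated range or below it. The log2 fold change of Gas6 was 2.37 ± 1.26 (SE) with library 1 and 0.28 ± 0.862 (SE) without it. Pros1 was at 142, 20.0, 21.1 and 7.62 CPM, with a log2 fold change of 1.76 ± 0.892 (SE), and 0.21 without library 1. Mfge8 was at 131, 27.4, 31.0 and 10.3 CPM, with 1.40 ± 0.728 (SE), and 0.29 without library 1. In library 4 all 3 ligands were at their lowest of the 10 libraries, and the fibroblast markers summed to 349 CPM there, against 924 to 2692 CPM untreated. The part of fibroblast content was not tested.

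Stab1 was at 646, 62.6, 36.7 and 31.0 CPM in 5-day libraries 1 to 4, against 28.4 to 56.8 CPM untreated. On the log2 scale this was 2.21 ± 1.08 (SE) with library 1 and 0.06 ± 0.399 (SE) without it. Stab2 had 51, 5, 0 and 1 counts. The sinusoidal and lymphatic marker Lyve1 reached 89.3 CPM in library 1, against 0.355 to 3.08 CPM in 5-day libraries 2 to 4. It was at 29.0 CPM in untreated library 3. Prox1, of the same list, went the other way, at 89.3 CPM in library 1 against 258 to 297 CPM in 5-day libraries 2 to 4. The 10 markers of that list summed to 450 CPM in library 1 and 318 to 372 CPM in 5-day libraries 2 to 4. The part of these cells in the Stab2 value was not tested. In 5-day library 2, where Mertk and Gas6 were the highest outside library 1, hepatocyte markers summed to 397 CPM and adrenal cortex markers to 1683 CPM, against at most 3.13 and 14.8 CPM untreated. Without libraries 1 and 2, Mertk had a log2 fold change of 0.93, Timd4 of 1.44, Gas6 of -0.99 and Stab1 of -0.31.

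The median over the 8 tested genes at 5 days was 2.15 with all libraries and 0.28 without library 1, where the medians of all tested genes were 0.01 and -0.0032. The macrophage marker sum in 5-day libraries 2 to 4 was 949 to 1575 CPM, against 519 to 948 CPM untreated, and 11 of the 16 markers had a higher mean. The mean log2(CPM + 0.5) of the markers was 4.21 to 5.16 there and overlapped with untreated. Its part in these values was not tested.

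**Figure D2:**
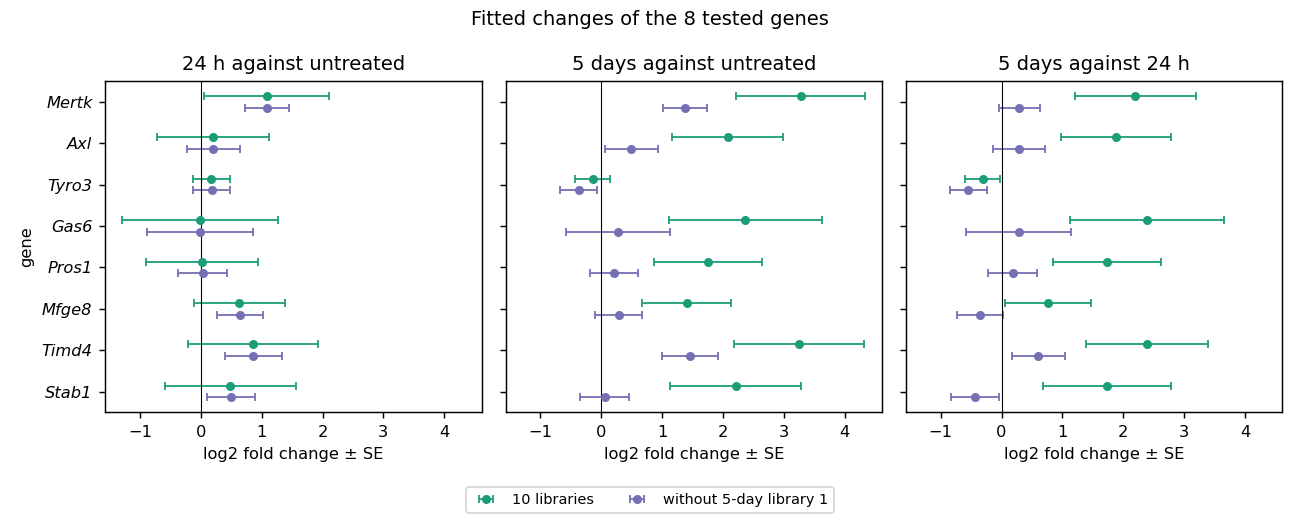
Points are edgeR log2 fold changes with their SE for the 8 tested genes in the 3 comparisons, from all 10 libraries and without 5-day library 1. Leaving out that library takes the 5-day change of Mertk from 3.28 to 1.38 and that of Stab1 from 2.21 to 0.06, and leaves the 24 h changes in place with shorter error bars for 8 of 8 genes.

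The comparison of 5 days with 24 h asks whether the later tumours differed from the early ones. No gene of the 9 was higher without overlap (3.27% of all tested genes were), and edgeR called 0% of genes, with 942 (6.3%) at an unadjusted p under 0.05, while DESeq2 called 3 (0.0206%), none of them among the 9, again with no adjusted p for Timd4 and Stab1. Without 5-day library 1 DESeq2 called 20 genes (0.358%). It gave an adjusted p there to Axl (0.883) and Stab1 (0.705) only, so the other genes of the 9 could not be called. For Mertk, 24 h libraries at 20.1 to 27.0 CPM lay inside the 5-day range of 14.9 to 336 CPM. Its log2 fold change was 2.20 ± 0.993 (SE), 0.29 ± 0.339 (SE) without 5-day library 1 and -0.15 without 5-day libraries 1 and 2. Timd4 in 5-day libraries 2 and 3 was above all 24 h libraries and in library 4 was between them. Its log2 fold change was 2.39 ± 1.01 (SE), and 0.60 ± 0.435 (SE) without library 1.

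The sign for Mfge8 and Stab1 turned without that library in this comparison. The log2 fold change was 0.77 ± 0.709 (SE) for Mfge8 and 1.73 ± 1.05 (SE) for Stab1, and -0.35 ± 0.375 and -0.44 ± 0.395 (SE) without it. Tyro3 was lower without overlap in 5-day libraries 2 to 4, with -0.55 ± 0.304 (SE) and an adjusted p = 0.681 by edgeR, where 6.75% of genes were so. Axl, Gas6 and Pros1 were at 0.29, 0.28 and 0.18 without library 1. The comparisons share libraries, and the values of each gene in them are therefore not independent.

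Counts of Mertk and Axl come from the same library, so their ratio does not depend on how libraries are scaled. This ratio was chosen after its values were seen and was not tested between groups. Mertk made up 26.2%, 26.3% and 13.4% of the Mertk and Axl counts in untreated libraries 1 to 3. It made up 32.5%, 31.1% and 34.6% in 24 h libraries 2 to 4, and 39.0%, 36.3%, 26.9% and 35.6% in 5-day libraries 1 to 4. All 7 treated libraries were above all 3 untreated ones, 5-day library 3 only just. Mertk alone already separated these libraries, so the ratio is not separate support. How often other gene pairs separate in this way was not computed. The group means were 22.0 ± 7.41% (SD, n = 3), 32.7 ± 1.79% (SD, n = 3) and 34.4 ± 5.27% (SD, n = 4).

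Counting error was not small beside these differences. The exact 95% binomial interval was 21.4% to 31.5% in untreated library 1, from 305 counts, and 27.7% to 37.6% in 24 h library 2, from 360 counts, which overlap. In 5-day library 1, with 3983 counts, it was 37.5% to 40.6%. The Mertk share there was near that of 5-day library 2, although both genes were far higher in library 1. For the ligands, Gas6 made up 28.2% to 55.9% of the Gas6 and Pros1 counts untreated, 36.4% to 56.5% at 24 h and 28.9% to 62.0% at 5 days, with overlap.

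**Figure D3:**
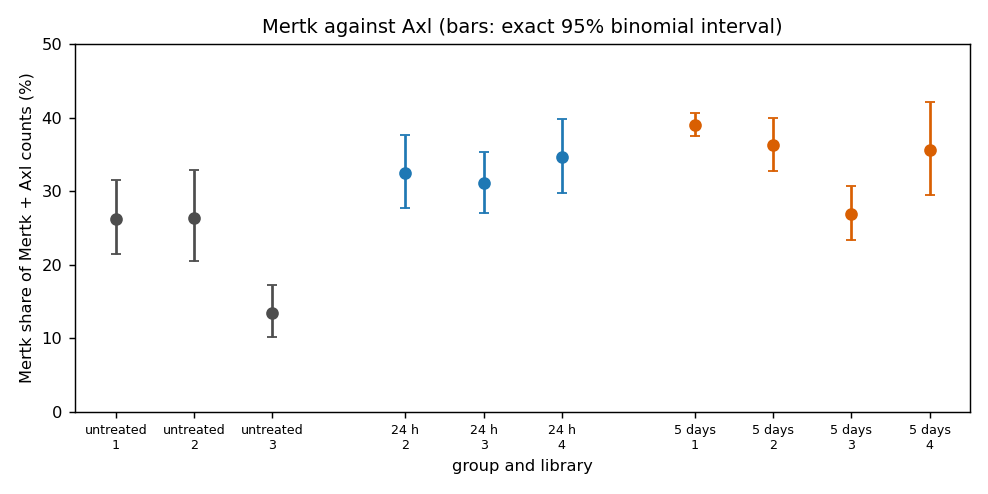
Points give the share of Mertk in the summed counts of Mertk and Axl in each library, in percent, with exact 95% binomial intervals as bars. The 7 treated libraries lie between 26.9% and 39.0% and the 3 untreated ones between 13.4% and 26.3%.

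Set against the mean log2 level of macrophage markers, Mertk was higher in every treated library than in any untreated one. Axl, Tyro3, Gas6, Pros1, Mfge8, Timd4 and Stab1 were not. The measure is log2(CPM + 0.5) of the gene minus the mean of the same over the 15 tested macrophage markers, and it was chosen after earlier results were known. For Mertk it ran from -1.29 to -0.50 untreated, from -0.33 to 0.03 at 24 h and from -0.26 to 0.27 at 5 days, so neither treated group overlapped with untreated. In 5-day library 1 it was -0.13, inside the range of the other 5-day libraries. For Axl it ran from 0.87 to 1.33 untreated, from 0.57 to 1.07 at 24 h and from 0.51 to 1.39 at 5 days. For Timd4 it ran from -4.09 to -2.58, from -3.26 to -2.49 and from -2.79 to -2.07 in the same order, with overlap. For Stab1 it ran from 0.92 to 1.30 untreated, from 0.60 to 1.60 at 24 h and from 0.42 to 0.82 at 5 days, which was below all untreated libraries. For Tyro3 in 5-day library 1 it was -6.32, the lowest of all. Tyro3 was at its highest there, at 4.11 CPM, but only just, while the macrophage markers had a mean log2 level of 8.52. The Mertk separation depends on this measure, which weighs each marker equally. Per summed marker CPM, untreated library 2 (9.58 CPM of Mertk to 519 CPM) lay above 24 h library 2 (20.1 to 1148 CPM). It also lay above 5-day library 4 (14.9 to 949 CPM) and, only just, 5-day library 3 (26.6 to 1453 CPM). The share of all tested genes that separate by the log2 measure was not computed. The Mertk and Stab1 separations thus have no background beside them. None of these differences was tested.

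**Figure D4:**
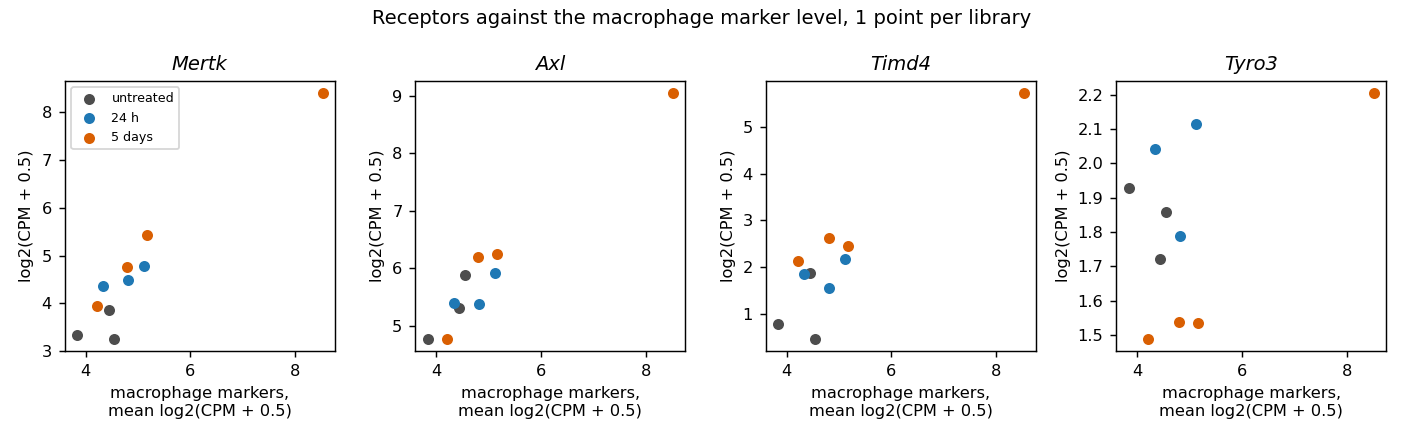
Each point is a library, with the mean log2(CPM + 0.5) of the 15 tested macrophage markers on the horizontal axis and that of Mertk, Axl, Timd4 or Tyro3 on the vertical axis. Mertk, Axl, Timd4 and Tyro3 are highest in the 5-day library at the far right, but Tyro3 spans only 1.49 to 2.20 over all libraries.

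Over the 9 libraries other than 5-day library 1, the genes varied in more than one pattern. Axl and Pros1 varied most alike (Pearson r = 0.94 of log2(CPM + 0.5) over 9 libraries), followed by Mertk and Timd4 (r = 0.83). Mertk and Axl had r = 0.63, Gas6 and Timd4 -0.01 and Tyro3 and Timd4 -0.44. With the mean of the macrophage markers, r was 0.81 for Mertk, 0.85 for Axl and 0.54 for Timd4. For the mean of the Schwann cell markers r was 0.74 for Mertk, 0.54 for Axl, 0.37 for Timd4 and 0.82 for Mfge8. For that of the adrenal cortex markers r was 0.65 for Mertk, 0.60 for Axl and 0.43 for Timd4. With the mean of the fibroblast markers it was 0.16 for Mertk and -0.21 for Timd4, and 0.81 for Axl, 0.81 for Gas6 and 0.89 for Pros1. The points share scaling and tissue content and include the treatment groups, so these values describe the libraries and carry no test.

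The 3 genes most like each member in that measure were taken from 12502 genes with a mean of at least 5 CPM. For Mertk they were Rcsd1 (r = 0.98), the linker histone gene Hist1h1c (0.97) and the sugar transporter gene Slc2a8 (0.96). For Timd4 they were Vcam1 (0.96), an adhesion molecule also found on some resident macrophages, Fnip1 (0.95) and Lrch1 (0.94). Axl was most like Pttg1ip, Slfn5 and Myo1d, and Pros1 most like Slfn5, Cebpb and Ifi204, all at r = 0.96 to 0.97. Among the genes most like Gas6 were Msrb3 and St3gal1. Mfge8 was most like Fblim1, Ermard and Shc1, Stab1 most like Capns1, Gm5637 and Thap3, and Tyro3 most like Nup35, Tcf4 and Mettl23.

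Of the other receptors for dying cells, 15 of 19 listed genes were tested, and 0 passed in any of the 3 comparisons with edgeR and all 10 libraries. Trem2, a lipid receptor of phagocytes, was at 7.72 ± 2.02 CPM untreated and 21.2 ± 3.35 CPM at 24 h (SD, n = 3 each). It was higher without overlap, as were 7.1% of all tested genes. In 5-day library 1 it reached 222 CPM, against 14.5 ± 7.30 CPM in the other 3. Cd36, a scavenger receptor for oxidised lipid, was at 32.6 ± 20.6, 54.9 ± 15.7 and 77.4 ± 57.9 CPM in untreated, 24 h and 5-day libraries 2 to 4, with 1156 CPM in 5-day library 1. Megf10, an engulfment receptor of glia, was at 1.80 ± 0.787 CPM untreated and 3.01 ± 0.452 CPM at 24 h. Of the 15 tested genes, 14 had a positive change at 24 h, with a median of 0.56. At 5 days 14 were positive as well, with a median of 2.13, and 0.53 without library 1.

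The 11 other bridging and opsonising proteins had a median of -0.20 at 24 h, with 5 of 11 positive, and 0 passed. At 5 days 10 of 11 were positive, with a median of 2.19, and 9 of 10 tested without library 1, with a median of 0.35. Apoe, the lipid carrier of macrophages, was at 402 ± 67.2 CPM untreated, 722 ± 158 CPM at 24 h and 1130 ± 694 CPM in 5-day libraries 2 to 4 (SD, n = 3 each). It lay above all untreated libraries at both times. Of all tested genes, 7.1% did so at 24 h and 6.45% in 5-day libraries 2 to 4. Calr, a chaperone that marks dying cells at their surface, was at 580 ± 89.5 CPM untreated and 448 ± 22.4 CPM in 5-day libraries 2 to 4. In these libraries it was below all untreated ones, as were 7.76% of genes, and it was at 875 CPM in library 1. Edil3, a relative of Mfge8, was at 0.407 ± 0.363 CPM untreated, a mean under the limit of 3 counts, with a highest library of 0.697 CPM. It was at 1.33 ± 1.12 CPM at 24 h and 2.06 ± 1.81 CPM in 5-day libraries 2 to 4 (SD, n = 3 each).

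Of 17 genes of engulfment and corpse digestion, 17 were tested and 0 passed, with a median of 0.06 at 24 h. At 5 days the median was 0.97 with library 1 and -0.05 without it. Abca1, the cholesterol exporter that LXR receptors control, was at 49.7 ± 3.13 CPM untreated, 78.6 ± 5.68 CPM at 24 h and 108 ± 36.1 CPM in 5-day libraries 2 to 4 (SD, n = 3 each). Both treated groups lay above all untreated libraries. Of all tested genes, 7.1% did so at 24 h and 6.45% in 5-day libraries 2 to 4. Without 5-day library 1 the 5-day difference of Abca1 had an unadjusted p = 0.000763 and an adjusted p = 0.243 by edgeR. Lipa, the lysosomal acid lipase gene, was at 41.0 ± 7.89 and 60.0 ± 7.39 CPM at 24 h, and Ucp2, a mitochondrial carrier that phagocytes need, at 264 ± 52.0 and 353 ± 23.9 CPM. Dnase2a, the lysosomal nuclease gene, was at 8.02 ± 3.20 and 13.9 ± 5.08 CPM, with overlap.

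Other lists hold genes that act in the dying cell. Of 10 tested genes for the exposure of phosphatidylserine, with a median of 0.01 at 24 h, 0 passed. The flippase gene Atp8a1 was at 20.8 ± 2.80 CPM untreated, 21.7 ± 4.02 CPM at 24 h and 29.8 ± 1.91 CPM in 5-day libraries 2 to 4 (SD, n = 3 each), higher without overlap, as 6.45% of genes were in these libraries. The scramblase genes Xkr4 and Xkr8 overlapped. The do-not-eat-me signal Cd47 was at 49.5 ± 3.30, 52.1 ± 6.53 and 50.7 ± 11.6 CPM, and its receptor Sirpa at 98.1 ± 19.4, 117 ± 9.56 and 114 ± 18.1 CPM in the same 3 sets. Pilra overlapped as well. Of 5 tested genes of these signals 0 passed. Find-me genes and their receptors had a median of 0.07 at 24 h over 8 tested genes, and 0 passed. The ATP channel gene Panx1 was at 80.6 ± 1.35 CPM untreated and 73.7 ± 2.32 CPM at 24 h, lower without overlap, as 6.67% of all tested genes were. Pla2g6 and the chemokine Cx3cl1 overlapped in both comparisons with untreated, and the nucleotide receptor P2ry2 reached 22.3 CPM in 5-day library 1, the others lying at 0.870 to 2.57 CPM.

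Of 9 tested nuclear receptors and factors that control clearance genes, with a median of -0.05 at 24 h, 0 passed. Klf4 was at 5.85 ± 4.88 CPM untreated and 2.49 ± 0.794 CPM at 24 h (SD, n = 3 each), and Rxrb and Ppargc1b overlapped with untreated at both times. For the vitamin K cycle and receptor shedding, 7 genes were tested, 0 passed and the median was 0.03. Ggcx, the carboxylase that Gas6 and Pros1 need, was at 11.4 ± 1.47 and 15.1 ± 2.28 CPM. It was higher at 24 h without overlap, as were 7.1% of all tested genes. Adam10, a sheddase, was at 99.8 ± 7.02 and 103 ± 4.98 CPM, and Rhbdf2, a partner of the sheddase Adam17, at 5.11 ± 1.42 and 7.80 ± 0.750 CPM. Of 4 tested genes that TAM signalling induces or uses to dampen inflammation, 0 passed, and Socs1 and Ifnar1 overlapped between untreated and both treated groups.

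**Figure D5:**
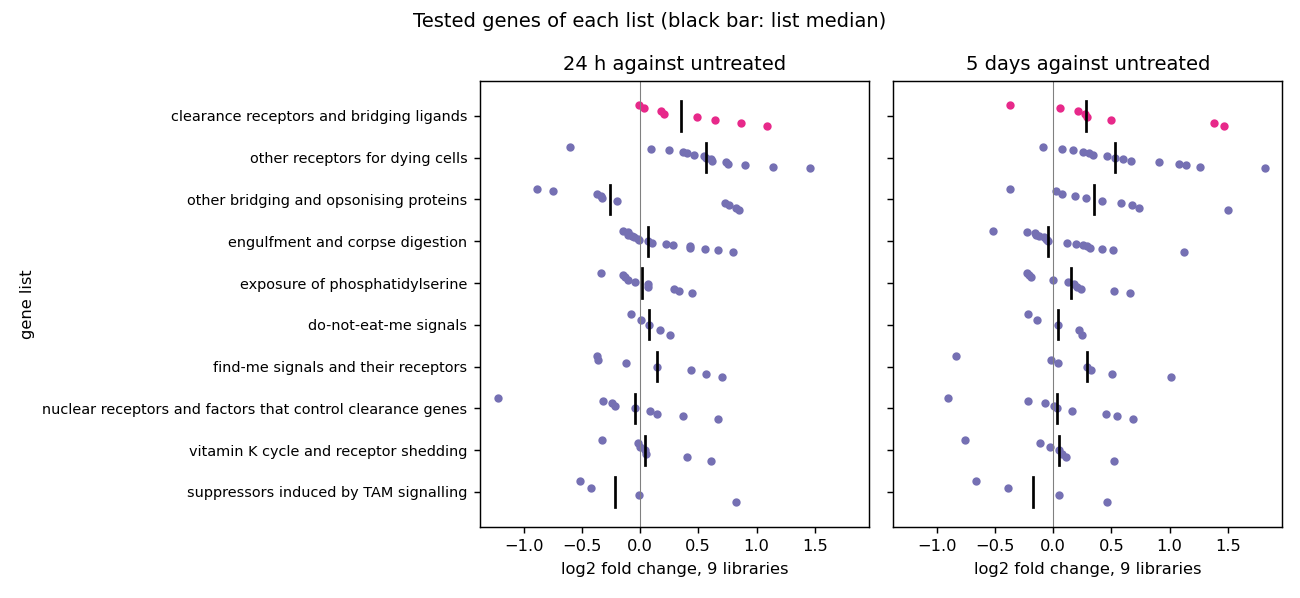
Each point is a tested gene of a list, placed by its edgeR log2 fold change from the 9 libraries other than 5-day library 1, with a black bar at the list median. The clearance receptors and ligands have medians of 0.35 at 24 h and 0.28 at 5 days, and the other receptors for dying cells 0.56 and 0.53.

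In the mm10 genome Mertk (ENSMUSG00000014361) spans chromosome 2, 128698956 to 128802894 (plus strand), and Timd4 (ENSMUSG00000055546) chromosome 11, 46810800 to 46844332 (plus strand). Axl (ENSMUSG00000002602) spans chromosome 7, 25757273 to 25788705 (minus strand), and Tyro3 (ENSMUSG00000027298) chromosome 2, 119797733 to 119818104 (plus strand). Exons of Gas6 share 34 bases with Tmem255b, those of Stab1 112 bases with Nt5dc2 and those of Stab2 141 bases with the antisense gene Gm16268, each on the opposite strand. Since the strand setting of the counting is not given, reads of these stretches cannot be told apart.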

How the data were processed

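RNA of 10 tumour libraries in 3 groups was analysed. The authors deposited whole-number counts per Ensembl gene, 1 file per library. Per the submitters' processing notes, the build was mm10 and the tools TopHat2 2.1.1, HISAT2 and edgeR, without their roles. Not given in the sources used here are the read counter, its annotation and its strand setting. Symbols and exon lengths came from GENCODE M21, which matched 54409 of 54446 identifiers.

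Counts were fitted in R 4.3.3 with edgeR 4.0.16 (filterByExpr, minimum count 10 and minimum total 15; TMM; robust quasi-likelihood F test; 1 mean per group over all 10 libraries). The TMM factor of 5-day library 1 was 0.812, and the others had 1.001 to 1.039. P-values were adjusted over all 14956 tested genes by the Benjamini-Hochberg method, and genes under 0.05 were called. CPM use scaled totals. SEs come from the F statistic. Alternatives were DESeq2 1.42.0, its size factors, voom with quality weights (limma 3.58.1), other filters, fewer libraries and a replicate block. The fits were tested on simulated data. Whether replicate numbers pair the libraries was left undecided. Of 8 same-numbered pairs, 2 correlated above 0.1 (-0.39 to 0.25), measured as deviations from group means. Both joined untreated and 24 h libraries, at 0.21 and 0.25, and the other pairs of these groups ran from -0.29 to 0.05. Deviations in the 5-day group hold the effect of library 1, so its pairs cannot show pairing. No 2 libraries of a group agreed within sampling noise.

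The 9 genes, the pathway and marker lists, the tests and the alternatives were chosen with earlier results of these data known. Named genes were the 9 genes, of each list the 2 tested genes with the smallest p at 24 h and the 2 at 5 days, and the 3 genes most correlated with each of the 8 tested genes. Other genes (Lyve1, Prox1, Lyz2, Csf1r, B2m and Itgam) were chosen after their values were seen. Figures used Python 3.11.15 and matplotlib 3.10.9. Some genes that the naming rule selects are not reported here.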

Additional observations from a re-analysis of the deposited data

Results flagged for a closer look

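In the 5-day group of 4 libraries, library 1 lay far outside the other 3 for 8 of the 9 genes, with a gap to the nearest library that exceeded Dixon's critical share of the whole range. Chance gives such a gap in about 5% of groups, and the 8 values come from 1 library. That library was known beforehand to stand apart. The share of all tested genes beyond the limit there was not computed. The count of 8 of 9 is therefore not read as a trait of these genes. Mertk was at 336 CPM there, Axl at 525 CPM and Tyro3 at 4.11 CPM. Gas6 was at 215 CPM and Pros1 at 142 CPM. Timd4 was at 52.6 CPM, Stab1 at 646 CPM and Stab2 at 11.03 CPM. Tyro3 differed from the rest in size, since its value in library 1 was 1.07 times the highest other library, whereas the other 7 were 6.57 to 12.9 times theirs. Mfge8, at 131 CPM and 3.58 times the highest other library, was under the limit.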

How the results depend on the processing

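Log2 fold changes of the 8 tested genes were recomputed in up to 20 other settings, and all gave a positive sign for Mertk and Timd4 against untreated at both times. Counts of called genes moved most. At 24 h edgeR called 7 genes with only the compared groups, 3 without 5-day libraries 1 and 2, and 0 to 2 with 1 library left out, the 2 without 5-day library 1. DESeq2 without that library called 105. At 5 days against untreated DESeq2 called 21 genes, and 77 without library 1, of which 1 was Mertk (1.385). At 5 days against 24 h DESeq2 called 3, and 20 without library 1, and edgeR called 2 without libraries 1 and 2. The cause was not tested.

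Some signs turned. With 1 library left out, 24 h changes ran from -0.0234 (without untreated library 2) to 0.53 for Axl, -0.42 to 1.01 for Gas6 and -0.23 to 0.36 for Pros1, and at 5 days against 24 h from -0.35 to 1.11 for Mfge8 and -0.44 to 2.09 for Stab1. With voom and quality weights, the 24 h changes were 0.055 for Gas6 and -0.0318 for Pros1, those at 5 days against untreated -0.066 for Gas6 and -0.0249 for Stab1, and those at 5 days against 24 h -0.121 for Gas6, -0.3305 for Mfge8 and -0.5602 for Stab1. Without 5-day libraries 1 and 2, Gas6 was at -0.9925 and Stab1 at -0.3144 against untreated, and Mertk at -0.1499, Gas6 at -0.9759, Mfge8 at -0.5022 and Stab1 at -0.7974 against 24 h. With DESeq2 without library 1, Mfge8 was at -0.3434 and Stab1 at -0.4224 against 24 h. The cause was not tested.

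With the replicate number as a block, Mertk at 24 h was at 2.08 (1.08 without it; adjusted p = 0.900 by edgeR) and Timd4 at 2.17 (0.86 without it; unadjusted p = 0.00349, adjusted p = 0.900). Mertk at 5 days against 24 h was at 0.49 (2.20 without it). Gas6 at 24 h was at 0.9977 and Mfge8 at 5 days against 24 h at -0.1715. With the replicate block and without 5-day library 1 they were at 0.0973 and -0.4234, and Stab1 at 5 days against 24 h at -0.3804. The block changed no call of the 9 genes, and 0 of 10 libraries correlated best with their own number. That check holds 5-day library 1 and leaves pairing undecided.

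Depth limits Timd4, Tyro3 and Stab2, which rest on 0 to 33 counts per library outside 5-day library 1. Unscaled totals lowered 5-day means, which hold library 1, such as Mertk from 105 to 90.0 CPM and Stab1 from 194 to 165 CPM, less than the SD among libraries. Stab2 untreated, with 1 count in each library, was at 0.177 CPM with them and 0.173 CPM with DESeq2 size factors.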
